A study of Mus musculus with 144 samples.

Results

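Wild-type mouse liver was compared on either side of lights off, at zeitgeber time 10 and 14 (ZT10 and ZT14, in hours after lights on). The comparison used total RNA, with 6 libraries at ZT10 and 6 at ZT14, which are 12 of the 144 libraries of the series and were chosen by genotype, RNA fraction and time in the labels. The mice were male and of the strain C57BL/6J, lived in 12 h of light and 12 h of dark and could always eat and drink, so ZT10 falls in the light phase and ZT14 in the dark phase. The assay was QuantSeq, 3′ mRNA sequencing that reads the end of a transcript next to its poly(A) tail. The same step from ZT10 to ZT14 was also taken in total RNA of Bmal1-/- mice (6 and 6 libraries) and in RNA from nuclei and from polysomes of wild-type livers (6 and 6 each), all with the same housing, feeding and sex in the labels. Ages, and whether replicates are separate animals, are not given in the sources used here, so p-values measure only the spread between these libraries. The labels do not say which part of Bmal1 is altered. Arntl, the gene of BMAL1, was still counted in Bmal1-/- libraries, at a mean of 12.2 ± 2.38 CPM (SD, n = 6; CPM is the count scaled to a common library total) at ZT10 and 11.5 ± 2.4 CPM (SD, n = 6) at ZT14, and a 3′ count outside an altered part tests nothing.

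The liver clock is a loop in which BMAL1 and CLOCK bind E-boxes and switch on the Per, Cry and Nr1d genes, whose proteins then hold BMAL1 and its targets back. Mice eat and move mainly in the dark, so lights off brings food, insulin and a higher body temperature to the liver together with the turn of the clock. Heat shock factor 1 drives the chaperones of the cytosol and nucleus through heat shock elements, and ATF6 and XBP1 drive those of the endoplasmic reticulum (ER) through ER stress elements.

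Promoter windows of 6 genes that rose or fell across lights off are shown because their letters hold an element named for one of these 3 systems. They are 100 bases of the RefSeq GRCm38.p6 promoter (250 bases before to 50 after the gene's start), 5′ to 3′ on the gene's strand, with the element in capitals. Hspa1b holds GAANNTTC, a short heat shock element, 104 bases before its start (chr17:34959289-34959388, minus strand), and the window of its paralog Hspa1a (chr17:34972207-34972306, minus strand) has the same letters. Fkbp4 holds GAANNTTC 151 bases before its start (chr6:128438754-128438853, minus strand). Hspa5 (chr2:34771984-34772083, plus strand) and Creld2 (chr15:88819479-88819578, plus strand, where it lies on the other strand and so reads in reverse complement) hold the ER stress element, CCAAT followed by CCACG after a gap of 9 bases. Cry1 (chr10:85185062-85185161, minus strand) and Fnip1 (chr11:54438057-54438156, plus strand) hold the E-box CACGTG.

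Hspa1b: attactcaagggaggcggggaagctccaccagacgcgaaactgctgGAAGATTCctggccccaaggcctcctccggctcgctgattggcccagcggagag
Fkbp4: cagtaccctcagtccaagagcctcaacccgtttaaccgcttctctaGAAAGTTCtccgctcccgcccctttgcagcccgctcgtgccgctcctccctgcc
Hspa5: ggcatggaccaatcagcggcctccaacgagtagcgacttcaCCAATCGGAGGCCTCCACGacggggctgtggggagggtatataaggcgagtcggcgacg
Creld2: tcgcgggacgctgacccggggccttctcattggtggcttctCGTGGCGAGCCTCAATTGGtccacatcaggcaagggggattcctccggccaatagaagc
Cry1: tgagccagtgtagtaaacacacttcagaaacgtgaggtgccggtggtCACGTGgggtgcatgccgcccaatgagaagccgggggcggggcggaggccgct
Fnip1: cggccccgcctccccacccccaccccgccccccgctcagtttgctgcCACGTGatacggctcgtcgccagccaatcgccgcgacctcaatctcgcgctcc

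Gene counts per library ran from 6606105 to 9189423 over the 12 libraries. The library labelled wild type, ZT14, replicate 4 went against its label. Over the tested genes it was nearest to the mean of Bmal1-/- at ZT14 (mean squared log2 difference 0.141) and farther from the mean of its own group (0.320), whereas the other 11 libraries were nearest to a wild-type mean. Of the 19 genes of the clock list, 14 lay outside the other 5 ZT14 libraries and inside the range of the Bmal1-/- libraries at ZT14, against 0 to 2 for each of those 5. Nr1d2, the gene of the repressor REV-ERBβ, was at 3.94 CPM in it, at 43.3 to 60.2 CPM in the other 5 and at 3.35 to 5.54 CPM in Bmal1-/-. Npas2, which can stand in for CLOCK, was at 6.06 CPM in it, at 0 to 0.220 CPM in the other 5 and at 5.16 to 9.90 CPM in Bmal1-/-. Its summed hepatocyte markers were low (39273 CPM against 66964 to 99385 CPM in the other 11), and its summed biliary markers were high (66.6 CPM against 16.3 to 27.9 CPM). The nuclear library labelled ZT14, replicate 4 (Npas2 6.65 CPM against 0 to 0.630 CPM) and the polysomal library labelled ZT14, replicate 3 (Npas2 14.4 CPM against 0 in the other 5) were likewise above the rest of their groups. The results below use all 12 libraries as labelled and are also given without replicate 4 at ZT14.

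**Figure D1:**
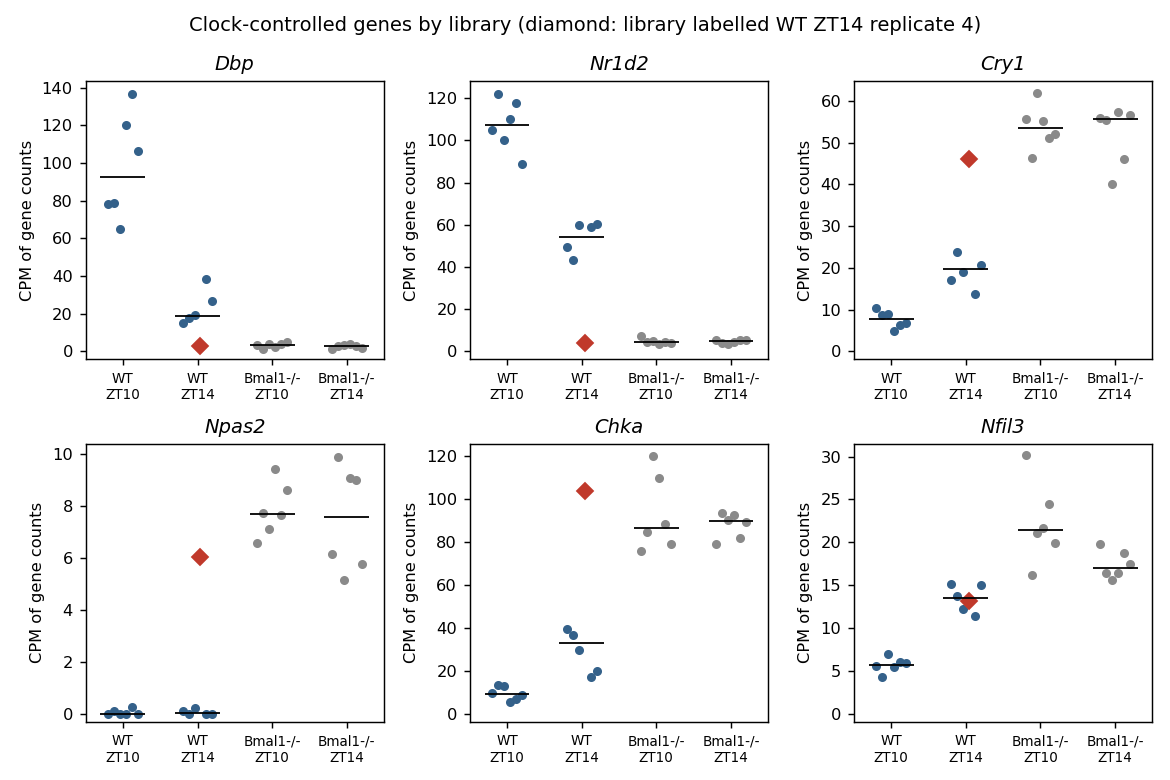
Each point is the level (CPM of gene counts) of 1 library, with wild-type (WT) and Bmal1-/- groups of 6 libraries at ZT10 and ZT14, lines at the medians and a diamond for the library labelled WT ZT14 replicate 4. The diamond sits with the Bmal1-/- libraries for Dbp, Nr1d2, Cry1 and Npas2, above them all but 2 for Chka, and with the wild-type ZT14 libraries for Nfil3 (13.2 CPM).

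Of the 6 hepatocyte markers, 0 were at 0 counts in all 12 libraries, and of the 8 pancreatic acinar markers 7 were. Over the 10 cell types checked, 0 marker genes passed the test between ZT10 and ZT14. Most or all markers were tested for hepatocytes and for Kupffer, sinusoidal endothelial, stellate and erythroid cells. Few were tested for biliary cells (2 of 6), neutrophils (2 of 5), adipose cells (1 of 5) and lymphocytes (1 of 8). Of the acinar markers 0 of 8 were tested, so for these last 5 types the result says little. The 3 lower-numbered and the 3 higher-numbered replicates, taken as sets, did not overlap within each time in their adipose and hepatocyte marker sums. Over gene counts at ZT14 the sets were not separate, as replicate 4 was far from replicates 5 and 6 too. The adipose marker sum was 5.26 to 33.5 CPM in replicates 1 to 3 and 0 to 1.18 CPM in replicates 4 to 6, with 1 of its 5 genes at 0 in all 12 libraries. The hepatocyte marker sum was 81435 to 99385 CPM in replicates 1 to 3 and 39273 to 75314 CPM in replicates 4 to 6. Both sets hold 3 libraries at each time, and with the set as a factor in the fit 228 genes passed, all of the 133 called without it among them. In bulk tissue, fewer cells of a type and less RNA per cell cannot be told apart.

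Across lights off, heat shock and ER chaperones such as Hspa1b and Hspa5, the metabolic genes Angptl8 and Plin5 and the clock genes Cry1 and Nfil3 rose, and Dbp, Rnf152, Fnip2 and Cirbp fell. Of 12040 genes tested, 133 passed an adjusted p of 0.05 (edgeR quasi-likelihood test), which is 1.1% of all genes. They divide into 65 that rose (0.54%), with a median log2 change of 0.89, and 68 that fell (0.565%), with a median of -0.78. Among them, 28 rose and 17 fell at least 2-fold, while the median log2 change of all tested genes was 0.0033. The sign was the same in replicates 1 to 3 and in replicates 4 to 6 for 132 of the 133, the other being Hspa1a, whose counts were too low to be tested within a set. The same 12 libraries chose the 133, so a shared sign was largely set by that choice and is no separate support. The 6 libraries of each time did not overlap for 99 of the 133, 46 higher and 53 lower, against 1.54% of all genes (0.648% higher). The choice of the 133 favoured this as well, so it is no separate support either. Without replicate 4 at ZT14, 189 genes passed (1.57%), 94 higher (0.781%) and 95 lower, of which 114 are among the 133, and the groups did not overlap for 153 of the 189, against 2.64% of all genes. The 189 were chosen from those same libraries, which favoured that count too. With the replicate number as a block, 242 passed (2.01%), 114 of them higher (0.947%), and 115 are among the 133. With DESeq2, 319 passed (2.65%), all of the 133 among them. With the 6 libraries of replicates 1 to 3, 48 passed, and with those of replicates 4 to 6, 12 did. Of these, 31 and 10 are among the 133.

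Of the loop's activators, Arntl was called higher with all 12 libraries. It ranged from 0.251 to 1.63 CPM with a median of 0.769 CPM at ZT10, and from 1.0 to 8.17 CPM with a median of 2.78 CPM at ZT14. The groups overlapped, the highest value was that of replicate 4, and the log2 change was 2.07 ± 0.46 (SE, adjusted p 0.044). That call was lost without replicate 4 at ZT14 (log2 1.75, adjusted p 0.051) and without any 1 of 9 other libraries (adjusted p up to 0.109; the exceptions were ZT10 replicate 1 and ZT14 replicate 5). Clock, its partner, had a log2 change of 0.62 ± 0.16 and was not called (adjusted p 0.083, or 0.027 with the replicate block). Npas2 was too low to be tested.

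Among the repressors, Cry1 rose and Per and Nr1d genes did not pass. Cry1 had a lowest, median and highest level of 4.98, 7.73 and 10.3 CPM at ZT10 and of 13.7, 19.8 and 46.0 CPM at ZT14. Every ZT14 library lay above every ZT10 library, and the log2 change was 1.58 ± 0.25 (adjusted p 0.0079), or 1.32 without replicate 4 (adjusted p 0.0016). Nr1d2 was at 88.8, 107 and 122 CPM at ZT10 and at 3.94, 54.2 and 60.2 CPM at ZT14. Its groups did not overlap, yet the log2 change of -1.21 ± 0.44 had an adjusted p of 0.30 with replicate 4 and of 0.00058 without it (log2 -0.97). Per3 (log2 -1.03, adjusted p 0.19) and Ciart (log2 -1.94, adjusted p 0.052), a further repressor of the loop, likewise had lower values in every ZT14 library and passed only without replicate 4 (adjusted p 0.0064 and 0.00058). Nr1d1, the gene of REV-ERBα, was lower in every ZT14 library as well (9.79 to 50.01 CPM and 0.454 to 7.92 CPM) and did not pass either way (adjusted p 0.099 and 0.096). Per1 (log2 -0.76) and Per2 (log2 0.54) were not called, with overlapping groups.

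The output arm of the clock, the D-box factors, showed opposite moves of an activator and the repressor. Dbp, an activator, was at 64.9, 92.5 and 137 CPM at ZT10 and at 3.03, 18.6 and 38.6 CPM at ZT14. The groups did not overlap, and the log2 change was -2.28 ± 0.45 (adjusted p 0.040; 0.0053 without replicate 4; 0.097 with the block). Nfil3, the repressor that competes for D-boxes, was at 4.25, 5.74 and 6.95 CPM at ZT10 and at 11.4, 13.5 and 15.1 CPM at ZT14. It did not overlap either and rose by 1.23 ± 0.15 (log2, adjusted p 0.00088; 0.00070 without replicate 4). Tef (log2 -0.55) and Hlf (log2 0.05) were not called. The Dbp call was lost without any 1 of 9 libraries (all but ZT10 replicate 3 and ZT14 replicates 4 and 5; adjusted p up to 0.0999).

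Over the clock list, 4 of 18 tested genes rose and 1 fell, against 0.54% of all genes higher and 0.565% lower. The median log2 change of the list was -0.17. Without replicate 4, 3 rose, Cry1 and Nfil3 among them, and 4 fell (Dbp, Nr1d2, Per3 and Ciart). Of all genes 0.781% were then higher and 0.789% lower. With the replicate block, 6 rose, among them Arntl, Clock, Per2, Cry1 and Nfil3, and 0 fell. Of all genes 0.947% were higher and 1.06% lower with the block. The library that went against its label holds the lowest ZT14 value of Nr1d2 and Dbp and the highest of Cry1 and Arntl.

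Among the heat shock chaperones 11 of 24 listed genes rose, 13 did not pass and 0 fell, against 0.54% of all genes higher, with 23 of 24 changes above 0 and a median log2 change of 0.59. Hspa1b, an inducible HSP70, was at 1.85, 2.56 and 4.01 CPM at ZT10 and at 13.6, 20.4 and 35.7 CPM at ZT14. The 2 groups were far apart, and the change was 8.76-fold (log2 3.13 ± 0.27, adjusted p 6.7e-05; 4.7e-06 without replicate 4). Hspa1a moved the same way from near 0 (0.138 to 0.979 CPM, then 1.65 to 7.23 CPM; log2 2.60 ± 0.53, adjusted p 0.025). Reads of these near-identical neighbours can be split between them, so the separate values are uncertain.

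The HSP90 and HSC70 genes, which are abundant without stress, rose by less and from higher levels. Hsp90aa1, the inducible HSP90, was at 170, 199 and 283 CPM at ZT10 and at 428, 525 and 817 CPM at ZT14 (2.62-fold, log2 1.39 ± 0.18, adjusted p 0.0012). Hspa8, the HSC70 gene, was at 47.6, 62.4 and 83.9 CPM and then at 130, 144 and 153 CPM (2.21-fold, log2 1.14 ± 0.14, adjusted p 0.00088). In both, all ZT14 libraries lay above all ZT10 libraries, and the calls held whichever library was left out. The constitutive Hsp90ab1 rose by 0.42 ± 0.10 (log2, adjusted p 0.0495), from a median of 791 to one of 1041 CPM, again without overlap.

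Their helpers rose too. Hsph1, an HSP70 exchange factor, was at 7.92, 20.8 and 31.3 CPM at ZT10 and at 30.9, 72.3 and 97.3 CPM at ZT14, overlapping only slightly (log2 1.84 ± 0.35, adjusted p 0.030). Bag3, which links HSP70 to autophagy, was at 11.9, 20.3 and 23.4 CPM and then at 24.7, 41.3 and 62.2 CPM without overlap (log2 1.22 ± 0.22, adjusted p 0.015, or 0.062 with the block). The HSP40 Dnajb1 (log2 0.97), and the HSP90 partners Chordc1 (log2 0.79), Fkbp4 (log2 0.61) and Ahsa2 (log2 0.57) rose as well. The mitochondrial chaperones Hspd1 (log2 0.16), Hspe1 (0.03) and Hspa9 (0.04) and the chaperonin subunits Cct5 (0.20) and Tcp1 (0.09) were not called. Without replicate 4, 13 of 24 rose (0.781% of all genes did), with Hspa4l (adjusted p 0.042) and Ahsa1 (0.033) added, and the list median was 0.64. With the block, 13 also rose (0.947% of all genes did), with Hspa4l, Dnaja1 and Stip1 added and Bag3 lost. The calls of Dnajb1, Chordc1 and Hsp90ab1 each ended without any 1 of the 11 libraries other than ZT14 replicate 4 (adjusted p up to 0.121). That of Hsph1 ended without any 1 of 8 libraries (ZT10 replicates 2, 4 and 6 and ZT14 replicates 1, 2, 3, 5 and 6; up to 0.072). That of Ahsa2 ended without any 1 of 6 (ZT10 replicates 1, 4 and 6, ZT14 replicates 2, 5 and 6; up to 0.060), that of Hspa1a without ZT10 replicate 2, 3, 4 or 5 (up to 0.074), and that of Fkbp4 without ZT10 replicate 5 or ZT14 replicate 6 (up to 0.062).

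**Figure D2:**
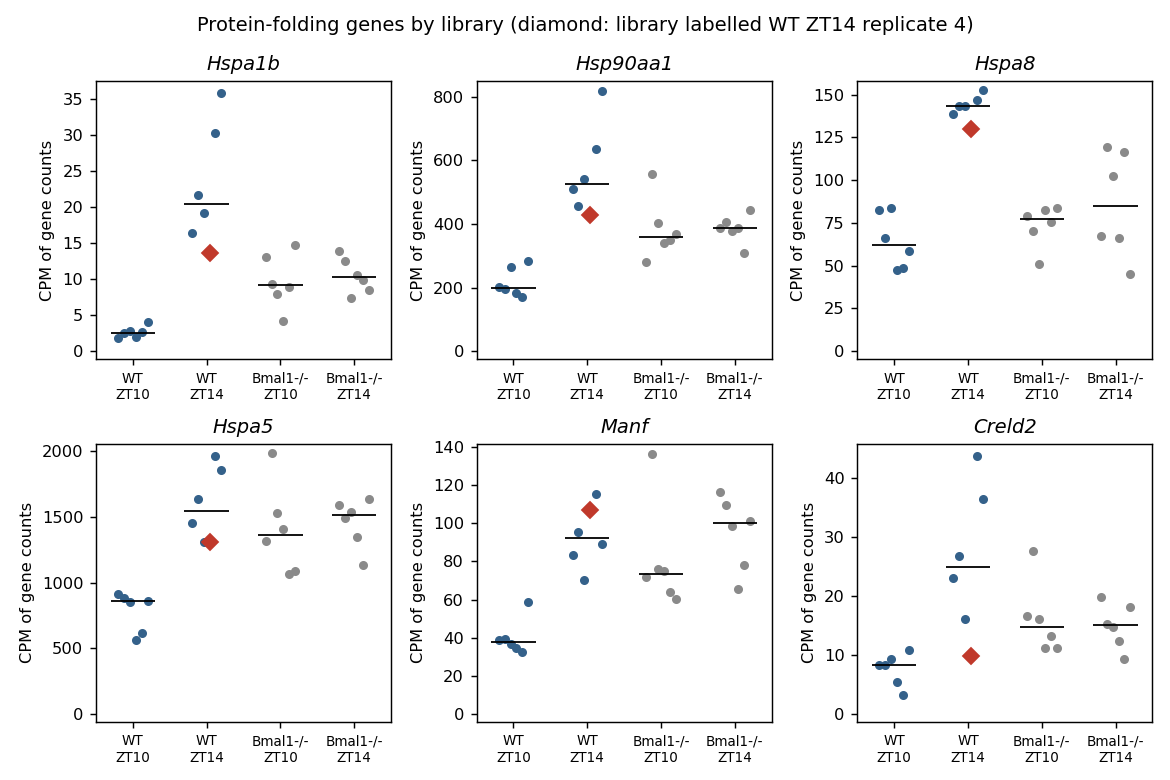
Each point is the level (CPM of gene counts) of 1 library in 4 groups of 6, with lines at the medians and a diamond for the library labelled WT ZT14 replicate 4. Wild-type ZT14 libraries lie above all wild-type ZT10 libraries for Hspa1b, Hsp90aa1, Hspa8, Hspa5 and Manf, while the Bmal1-/- groups overlap in all 6 genes.

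In the ER folding list, 4 of 24 genes rose and 0 fell, against 0.54% of all genes higher, with 23 changes above 0 and a median log2 change of 0.29. Hspa5, the ER HSP70 known as BiP, was at 564, 856 and 911 CPM at ZT10 and at 1309, 1546 and 1961 CPM at ZT14. The groups did not overlap, and the change was 2.04-fold (log2 1.03 ± 0.15, adjusted p 0.0031). Manf, a secreted ER stress factor that binds BiP, was at 32.4, 37.7 and 58.6 CPM and then at 70.4, 92.4 and 115 CPM (log2 1.22 ± 0.15, adjusted p 0.00098), also without overlap. Creld2, another BiP-linked protein of the ER, was at 3.27, 8.38 and 10.8 CPM and then at 9.84, 24.9 and 43.9 CPM (log2 1.79 ± 0.36, adjusted p 0.040, or 0.082 with the block). Its groups overlapped only through replicate 4 at ZT14, and without that library the adjusted p was 0.0054. The ER HSP40 Dnajb9 rose by 0.73 ± 0.17 (log2, adjusted p 0.047, or 0.079 with the block).

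The other 20 genes of the ER folding list did not pass. The disulfide isomerases Pdia3 (log2 0.31), Pdia4 (0.48), Pdia6 (0.10) and P4hb (0.04), the lectin chaperones Calr (0.24) and Canx (0.20), and the regulators Xbp1 (0.05) and Atf6 (0.09) were not called. Sel1l, of the machinery that removes misfolded proteins, passed only without replicate 4 (log2 0.48, adjusted p 0.035) or with the block (0.044), and Hyou1 passed only with the block (0.047). The Creld2 call ended without any 1 of 10 libraries (all but ZT14 replicates 3 and 4; adjusted p up to 0.108), and that of Dnajb9 without any 1 of the 11 other than ZT14 replicate 4 (up to 0.115). Ddit3, the stress factor CHOP, had higher values in every ZT14 library (4.37 to 8.79 CPM, then 9.57 to 30.1 CPM) but passed only without replicate 4 (adjusted p 0.030) or with the block (0.044), against 0.059 with all 12. The ATF4 list had 0 of 15 genes called by edgeR with all 12 libraries (5 at an unadjusted p under 0.05). With the block Trib3, a pseudokinase induced in the same response, was lower (log2 -2.44, adjusted p 0.020, against 0.083). Atf4 itself had a log2 change of 0.41 (adjusted p 0.13).

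Genes of the secretory route that are not on that list were among the risers, and are named after their values were seen. Ostc (log2 0.54 ± 0.10, adjusted p 0.018), a subunit of the enzyme that attaches N-glycans, was at 75.9 to 115 CPM and then at 133 to 147 CPM. Sec23b (log2 0.70, adjusted p 0.030), of the coat of vesicles that leave the ER, and Srprb (log2 0.68, adjusted p 0.034), of the receptor that docks ribosomes on the ER, did not overlap between times either. Atp2a2, the pump that loads the ER with calcium, was at 40.0, 52.8 and 60.7 CPM and then at 79.1, 96.7 and 114 CPM (log2 0.89 ± 0.11, adjusted p 0.00098). P4ha1, a collagen prolyl hydroxylase of the ER, rose by 1.41 ± 0.22 (log2, adjusted p 0.0052). The calls of Ostc (without ZT10 replicate 4, adjusted p 0.053), Sec23b (without any 1 of 6 libraries, ZT10 replicates 1 and 4 and ZT14 replicates 1, 3, 5 and 6, up to 0.081) and Srprb (without any 1 of 9, all but ZT10 replicates 3 and 6 and ZT14 replicate 4, up to 0.084) were not kept when a library was left out.

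Elements named for these systems were sought on either strand of the 300-base promoters of the 8531 tested genes that RefSeq matched, among them 95 of the 133. The heat shock element GAANNTTC was in 7.14% of all promoters, in 7 of 42 genes that rose, in 1 of 53 that fell and in 11 of 19 of the heat shock list. Of that list's carriers, Hspa1a, Hspa1b, Fkbp4, Bag3, Chordc1 and Hsph1 rose. Dnaja1, Dnaja4, Hspb1, Hspd1 and Hspe1 carry it too and were not called with all 12 libraries. The ER stress element was in 0.176% of all promoters (15 genes), in 2 of 42 that rose (Hspa5 and Creld2), in 0 of 53 that fell and in 8 of 19 of the ER folding list. The other carriers on that list, Calr, Canx, Dnajc3, Hsp90b1, Pdia6 and Syvn1, were not called. The E-box CACGTG, which can share bases with the end of an ER stress element, was in 12.0% of all promoters, in 5 of 42 that rose and in 11 of 53 that fell. The D-box TTATGTAA (0.680% of all) was in 0 and 1 of these, and the element AAAGGTCA, to which REV-ERB receptors bind (1.43% of all), in 0 of each. These are matches of letters only.

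Angptl8, Plin5, Chka and Slc16a6, all of lipid or small-molecule metabolism, were among the other risers. Angptl8, a feeding-induced liver hormone that helps to block lipoprotein lipase elsewhere, was at 5.81, 7.90 and 15.0 CPM at ZT10 and at 22, 31.4 and 57.8 CPM at ZT14. All ZT14 libraries were above all ZT10 libraries, and the change was 4.13-fold (log2 2.05 ± 0.26, adjusted p 0.0020). Plin5, which coats lipid droplets, was at 19.9, 26.9 and 33.0 CPM and then at 39.7, 49.6 and 59.1 CPM (log2 0.89 ± 0.13, adjusted p 0.0034).

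Chka, choline kinase, which opens phosphatidylcholine synthesis, was at 5.39, 9.28 and 13.3 CPM at ZT10 and at 17.3, 33.2 and 104 CPM at ZT14. The groups did not overlap, and the log2 change was 2.08 ± 0.40 (adjusted p 0.036, or 0.087 with the block). Its highest value, 104 CPM, was that of replicate 4, and without it the change was 1.62 (adjusted p 0.0041). Slc16a6, a monocarboxylate transporter, rose by 1.35 ± 0.30 (log2, adjusted p 0.047, or 0.10 with the block), from 4.15 to 17.96 CPM up to 17.9 to 42.4 CPM. The call of Chka ended without any 1 of 8 libraries (ZT10 replicates 1 to 6 and ZT14 replicates 1 and 2, up to 0.104). That of Slc16a6 ended without any 1 of 10 (all but ZT10 replicate 2 and ZT14 replicate 4, up to 0.107).

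The lists around these genes mostly did not pass. Among the fasting targets of PPAR alpha 1 of 22 rose (Plin5, list median -0.11), against 0.54% of all genes higher. With the block Plin2, which coats lipid droplets too, was lower (log2 -0.52, adjusted p 0.031, against 0.24). In cholesterol synthesis and uptake 0 of 25 passed by edgeR (0 also at an unadjusted p under 0.05), with 22 changes above 0 and a median of 0.23, which became -0.04 without replicate 4. Without that library Hmgcs1, an early enzyme of this synthesis named after its values were seen, was called lower (log2 -0.83, adjusted p 0.018, against 0.19 and 0.95 with all 12). In glucose and glycogen 0 of 19 passed (4 at an unadjusted p under 0.05). Pck1, the rate-limiting enzyme of glucose production, was at 576 to 1915 CPM and then at 412 to 861 CPM (log2 -1.05, adjusted p 0.10, or 0.036 with the block). Ppp1r3b, which recruits phosphatase to glycogen, was at 44.1 to 304 CPM and then at 280 to 508 CPM (log2 1.17, adjusted p 0.28).

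Most changes of ribosome genes were small and above 0. In ribosome biogenesis 3 of 35 genes rose and 0 fell, against 0.54% of all genes higher (median 0.27): the nucleolar factor Nop16 (18.3 to 25 CPM, then 30.1 to 39.4 CPM; log2 0.70 ± 0.12, adjusted p 0.0086), Tsr1 (0.68, adjusted p 0.040, or 0.052 with the block) and Bysl (0.64, adjusted p 0.045), the last pair being factors of the small subunit. The Tsr1 call ended without any 1 of 9 libraries (all but ZT10 replicate 3 and ZT14 replicates 3 and 4, up to 0.106) and that of Bysl without any 1 of the 11 other than ZT14 replicate 4 (up to 0.117). With the block Nop56 (adjusted p 0.023, against 0.44, named after its values were seen) and Mybbp1a (0.045, against 0.31) were called higher as well. Of the ribosomal proteins 0 of 79 passed by edgeR (3 at an unadjusted p under 0.05), with 75 changes above 0 and a median of 0.13, against a median of 0.0033 over all genes.

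Among the genes that fell were Rnf152, folliculin and both of its FNIP partners. Rnf152, a ubiquitin ligase of the lysosome, was at 86.7, 110 and 152 CPM at ZT10 and at 32.5, 46.4 and 65.9 CPM at ZT14. The groups did not overlap, and the change was -1.27 ± 0.17 (log2, adjusted p 0.0017). Fnip2, a partner of folliculin, was at 21.3, 26.5 and 33.4 CPM and then at 8.63, 10.7 and 15.2 CPM (log2 -1.23 ± 0.15, adjusted p 0.00088). Flcn, folliculin, through which lysosomal amino acids act on mTORC1 and TFE factors, was at 12.7, 17.3 and 22.6 CPM and then at 8.33, 8.75 and 10.03 CPM (log2 -0.95 ± 0.15, adjusted p 0.0068), so that all 3 were lower in every ZT14 library. Fnip1, the other folliculin partner, fell by 0.85 ± 0.17 on the log2 scale (adjusted p 0.029) and was named after its values were seen. Its call ended without any 1 of 6 libraries (ZT10 replicates 4, 5 and 6 and ZT14 replicates 1, 3 and 6, up to 0.083), while those of Rnf152, Fnip2 and Flcn held without each library in turn.

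Of the autophagy list, the starter kinase fell. Ulk1, which opens autophagy, was at 82.8, 95.5 and 112 CPM and then at 46.2, 58.8 and 73.6 CPM (log2 -0.69 ± 0.13, adjusted p 0.020), with no overlap. It was the 1 gene of 24 in the autophagy list that fell (median of the list -0.06), against 0.565% of all genes lower. Its call ended without ZT10 replicate 1, ZT10 replicate 5 or ZT14 replicate 6 (up to 0.054). Calcoco1, a receptor for autophagy of the ER that is not on that list, was at 51.4, 70.2 and 149 CPM and then at 16.6, 22.2 and 39.4 CPM (log2 -1.82 ± 0.29, adjusted p 0.012). Gabarapl1, which is built into autophagosome membranes, had a log2 change of -0.62 and passed only with the block (adjusted p 0.015, against 0.099). Npc1, which exports cholesterol from lysosomes, was at 88.5, 101 and 150 CPM and then at 53.5, 58.0 and 76.3 CPM (log2 -0.89 ± 0.16, adjusted p 0.012), without overlap.

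Ppargc1b and Klf9, regulators of transcription, fell as well. Ppargc1b, a coactivator of mitochondrial gene programs, was at 12.1, 26.1 and 36.2 CPM at ZT10 and at 9.33, 10.05 and 13.0 CPM at ZT14 (log2 -1.27 ± 0.22, adjusted p 0.014). Its ZT14 values were tight, and only the lowest ZT10 library reached into them. Klf9, a glucocorticoid-induced repressor, was at 250, 285 and 439 CPM and then at 162, 182 and 212 CPM (log2 -0.81 ± 0.15, adjusted p 0.018), although Tsc22d3, also a glucocorticoid target, rose from 32.5 to 66.9 CPM up to 68.1 to 132 CPM (log2 0.86 ± 0.19, adjusted p 0.045). Fkbp5, a cochaperone of the glucocorticoid receptor, was at 8.16, 14.8 and 17.5 CPM and then at 11.1, 39.5 and 49.1 CPM. It had an adjusted p of 0.056 with 12 libraries, 0.00054 without replicate 4 and 0.0050 with the block (log2 1.33 ± 0.30). The glucocorticoid list thus had 1 gene higher and 1 lower of 17 (median 0.34, or 0.13 without replicate 4). Of all genes 0.54% were higher and 0.565% lower. The Tsc22d3 call ended with the block (0.098) and without any 1 of 9 libraries (all but ZT10 replicate 2 and ZT14 replicates 2 and 5, up to 0.115; 0.053 without replicate 4), and that of Klf9 without ZT10 replicate 4 or ZT14 replicate 1 (up to 0.055).

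Cirbp, the cold-inducible RNA-binding protein, fell while the related Rbm3 was not called. Cirbp was at 12.6, 13.3 and 17.1 CPM and then at 4.91, 7.99 and 8.48 CPM, with no overlap (log2 -0.94 ± 0.16, adjusted p 0.0082). Rbm3 was at 12.5, 14.5 and 21.3 CPM and then at 14.04, 16.4 and 17.9 CPM (log2 0.01 ± 0.14). Slc38a2, an amino acid transporter, was the 1 of 28 genes of the urea cycle and amino acid list that fell (log2 -0.57 ± 0.13, adjusted p 0.0496), against 0.565% of all genes lower. Its call ended without any 1 of 10 libraries (all but ZT14 replicates 4 and 5, up to 0.119).

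The other large falls had no list of their own. Gpcpd1, which breaks down glycerophosphocholine, was at 56.7 to 105 CPM and then at 19.2 to 56.5 CPM (log2 -1.14 ± 0.25, adjusted p 0.0496, or 0.11 with the block). Ank3 (log2 -1.11), the membrane adaptor ankyrin-G, the focal adhesion protein Tns2 (-1.07), Eepd1 (-1.05) and Adora1 (-0.98), an adenosine receptor, were lower in all ZT14 libraries. Klhl24 (log2 -1.08), a ubiquitin ligase adaptor, overlapped through replicate 4 (25.9 CPM at ZT14, against 25.2 to 49.8 CPM at ZT10). The Gpcpd1 call ended without any 1 of 9 libraries (all but ZT10 replicate 3 and ZT14 replicates 4 and 5, up to 0.127), and that of Klhl24 without ZT10 replicate 5 or ZT14 replicate 1, 5 or 6 (up to 0.069).

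**Figure D3:**
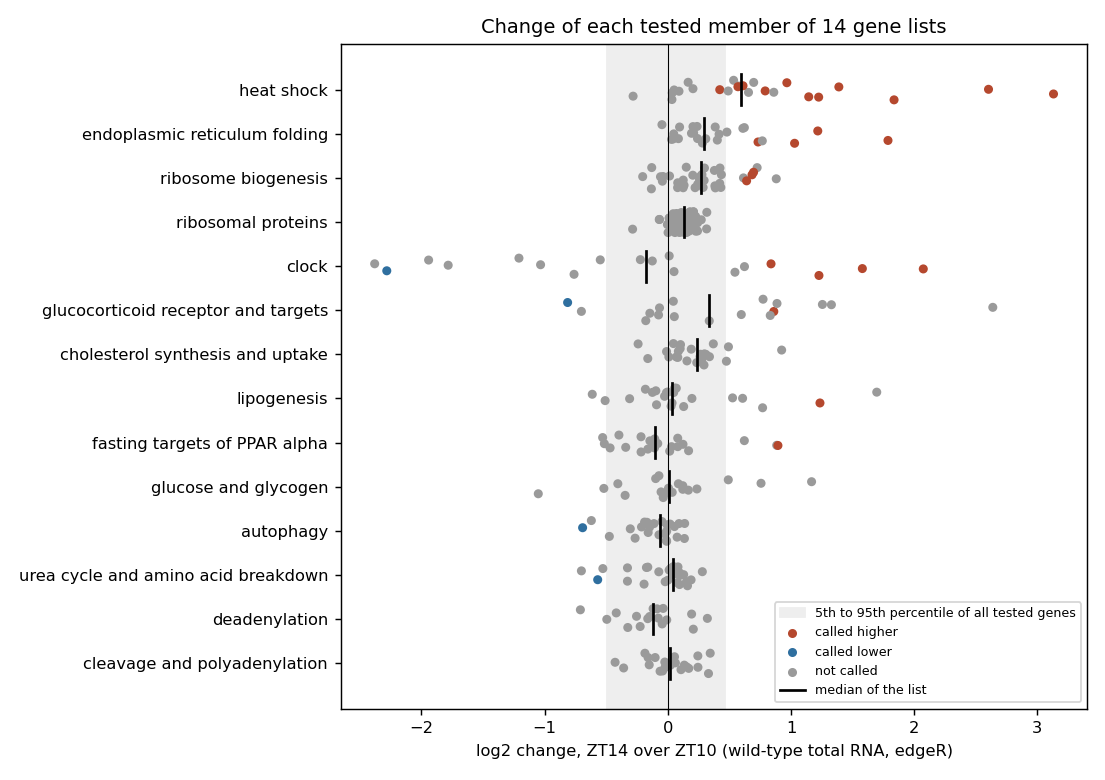
Each point is the log2 change (ZT14 over ZT10) of 1 tested gene in wild-type total RNA, coloured by its call, with lines at the list medians and a grey band for the middle of all tested genes. Heat shock genes lie farthest to the right (median 0.59, 11 of 24 higher), and clock genes spread to both sides (4 higher, 1 lower). Of all genes 0.54% were higher and 0.565% lower.

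Lists without a call with all 12 libraries were insulin, growth hormone and IGF signalling (22 genes), immediate early genes (12), bile acids (21), heme and xenobiotic metabolism (23), SR proteins (17), cleavage and polyadenylation (22), deadenylation (17), actin and tubulin (22), NAD metabolism (15), polyamines and growth (11), periportal (12), pericentral (12) and mitochondrially encoded genes (9). With the replicate block 1 gene passed in each of 4 of these lists: Abcg8, a sterol exporter of the bile acid list (log2 -0.58, adjusted p 0.013, against 0.17), Tob2 of deadenylation (-0.71, 0.034, against 0.10), Pck1 of the periportal list (-1.05, 0.036, against 0.10) and Nnmt, a nicotinamide methyltransferase (0.62, 0.0051, against 0.10). Without replicate 4 at ZT14, Srm, spermidine synthase, passed (0.73, 0.044, against 0.14). Between 0 and 5 of each list had an unadjusted p under 0.05 in edgeR. Their medians ran from -0.15 (periportal) to 0.15 (actin and tubulin).

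Counts at single polyadenylation sites gave the same kind of picture, with many called sites in a few genes. Of 19745 sites tested, 71 passed (0.36%), 37 higher and 34 lower, and 66 of them lie in 50 genes. Of these genes, 45 also passed by gene count, and among the other 5 were Gm15459, Slc38a4, Ypel5 and Zfand5, named for this reason after their values were seen. Without replicate 4 at ZT14, 91 of 19787 sites passed (0.46%).

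Hsp90aa1 had 6 called sites on the minus strand of chromosome 12 (authors' site list, between 110691070 and 110695181), which rose by 1.28 to 1.41 (log2). Its main site, chr12:110692656-110692872, held 36.5 ± 3.05% of the gene's site counts (SD, n = 6) at ZT10 and 36.9 ± 1.36% (SD, n = 6) at ZT14. Hspa1b rose at its site chr17:34956428-34956554 by 3.19 ± 0.28 (log2, adjusted p 8.2e-05). Hspa5 had 3 called sites on chromosome 2, and the main one (chr2:34776164-34776480) held 79.1 ± 3.94% of its counts at ZT10 and 76.4 ± 5.11% at ZT14 (SD, n = 6 each). Klf9 had 3 called sites on chromosome 19, at 49.8 ± 2.11% and 49.6 ± 3.06% for the main one (chr19:23165269-23165453; SD, n = 6 each). Dbp had 4 called sites on chromosome 7, of which the most 3′ (chr7:45710015-45710158) held 30.8 ± 2.51% at ZT10 and 45.5 ± 10.8% at ZT14 (SD, n = 6 each), a difference in share with an adjusted p of 1. The ZT14 share includes replicate 4, where Dbp was low (3.03 CPM, against 14.9 to 38.6 CPM in the other ZT14 libraries). Without that library the difference in share did not pass either.

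The share of a site within its gene was tested apart from the gene's level. Of 13236 sites in 4296 genes, 0 passed by edgeR's quasi-likelihood test (475 at an unadjusted p under 0.05) and 0 by edgeR's splicing test (103 at an unadjusted p under 0.05). Both counts are below the 661.8 expected by chance, so 0 calls do not show that shares stayed the same. With the replicate block 1 site passed (adjusted p 0.029, against 0.89 without it). It is a site of Slc38a4, an amino acid transporter, at chr15:96994809-96995010 on the minus strand, named after its values were seen, which held 37.4 ± 6.89% of the Slc38a4 counts at ZT10, then 24.4 ± 3.04% at ZT14 (SD, n = 6 each). Averaged over the 4296 genes, the share at the most 3′ site was 44.3 ± 1.30% at ZT10 and 43.9 ± 1.89% at ZT14 (SD, n = 6 each). The difference of -0.41 percentage points was smaller than the spread between libraries (2-sided exact permutation test over 924 splits, p = 0.647).

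The same step was then taken in livers labelled Bmal1-/-, to ask which changes differ without the clock's activator. There 0 of 12089 genes passed between ZT10 and ZT14 (edgeR, smallest adjusted p 0.31). At an unadjusted p under 0.05 there were 400, fewer than the 604 expected by chance. The Bmal1-/- library labelled ZT14, replicate 1, lay far from its group mean (mean squared log2 difference 0.340). The other Bmal1-/- libraries at ZT14 lay at 0.113 to 0.179. That library also had the fewest counts of the Bmal1-/- libraries (4379549), and no run left it out. The 0 calls therefore do not show an absence of change. The 65 genes that rose in wild type had a median log2 change of -0.05 in Bmal1-/- (23 above 0, from -0.56 to 0.23), and the 68 that fell had a median of -0.03 (39 below 0, from -0.65 to 0.97). The difference between the genotypes was tested itself, as an interaction, and passed for 30 of 12089 genes (0.248%): the wild-type change was higher for 21 and lower for 9, and 27 of them are among the 133. The interaction uses the wild-type libraries that chose the 133, so this overlap was favoured by that choice. So was a smaller change of the 133 in Bmal1-/-. Without replicate 4 at ZT14 in wild type, 49 genes passed (0.405%), 27 of them shared, and with the replicate block 95 did. For the other genes of the 133 a difference between genotypes did not pass.

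In Bmal1-/- the inducible chaperones Hspa1b and Hsp90aa1 had means that differed between the times by less than their SD, above the wild-type mean at ZT10 and below that at ZT14. Hspa1b was at 9.68 ± 3.76 CPM at ZT10 and at 10.5 ± 2.44 CPM at ZT14 in Bmal1-/- (SD, n = 6 each), between the wild-type means of 2.62 and 22.8 CPM, and its change differed by -3.06 (log2, Bmal1-/- minus wild type, adjusted p 1.3e-04). Hsp90aa1 was at 383 ± 94.2 and 386 ± 44.4 CPM in Bmal1-/- (SD, n = 6 each), between wild-type means of 216 and 565 CPM (difference -1.40, adjusted p 0.0067). Bag3 differed likewise (-1.43, adjusted p 0.014), and the median of the heat shock list was -0.06 in Bmal1-/-. The interaction of Hspa5 (-0.99, adjusted p 0.057), Hsph1 (-1.95, 0.054) and Creld2 (-1.91, 0.084) passed only without replicate 4 (0.026, 0.012 and 0.016).

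Metabolic and clock genes differed as well. Nfil3 was at 22.3 ± 4.72 CPM at ZT10 and 17.4 ± 1.60 CPM at ZT14 in Bmal1-/- (SD, n = 6 each; difference of changes -1.60, adjusted p 1.3e-04). Cry1 was at 53.7 ± 5.26 and 51.9 ± 7.13 CPM there (SD, n = 6 each; -1.65, adjusted p 0.0064), and each Bmal1-/- library lay above the other 11 wild-type libraries, leaving out replicate 4 at ZT14. Plin5 was at 49.7 ± 22.9 and 34.1 ± 6.03 CPM (SD, n = 6 each; -1.46, adjusted p 0.021). Arntl (-2.18, adjusted p 0.036) and Chka (-2.18, adjusted p 0.021) differed too. Angptl8 had a difference of -2.39 that did not pass (adjusted p 0.13).

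Of the genes that fell in wild type, Rnf152 was low at both times in Bmal1-/- (41.2 ± 7.75 and 36.7 ± 7.04 CPM, SD, n = 6 each; difference 1.08, adjusted p 0.033). Ppargc1b was low at both times too (10.9 ± 2.42 and 12.4 ± 3.01 CPM, SD, n = 6 each; 1.44, adjusted p 0.025), as was Npc1 (49.1 ± 8.80 and 52.0 ± 8.09 CPM, SD, n = 6 each; 0.96, adjusted p 0.033). Cirbp, in contrast, was at 12.5 ± 2.35 and 13.1 ± 1.21 CPM (SD, n = 6 each; 0.99, adjusted p 0.026), near the wild-type mean of ZT10 (13.96 CPM). Zc3h6 (1.94, adjusted p 0.020) and Cdc14b (1.01, adjusted p 0.0040) differed as well. The differences in Dbp (1.96, adjusted p 0.21) and Fnip2 (1.28, adjusted p 0.080) did not pass.

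**Figure D4:**
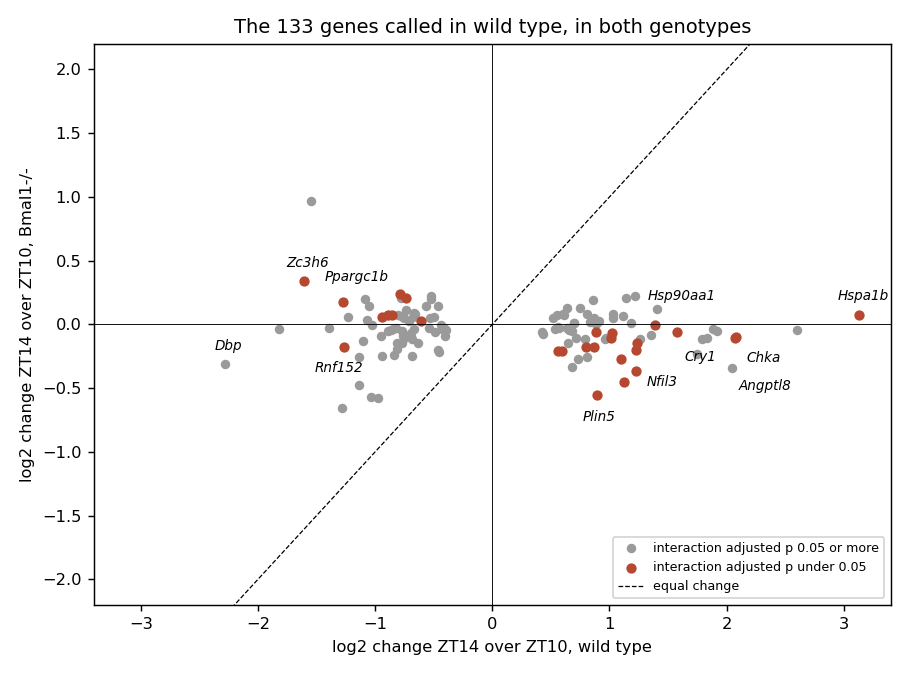
Each point is 1 of the 133 genes called in wild type, with its log2 change (ZT14 over ZT10) in wild type on the x axis and in Bmal1-/- on the y axis, red where the interaction passed. The points lie along the horizontal zero line between -0.65 and 0.97, not along the dashed line of equal change. The genes were chosen by their wild-type change, which favours smaller values on the y axis.

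In the other RNA fractions of wild-type liver most of the 133 genes had a change of the same sign. The exceptions were Mpdz in nuclear RNA (log2 0.69) and Mtx3 (0.20), Lum (-0.11) and Cyp2c53-ps (-0.01) in polysomal RNA, and Hspa1a (both fractions) and Mterf2 (nuclear RNA) were not tested there. Whether the fractions came from the same livers is not known here, so a shared sign may not be separate support. In nuclear RNA 54 of 11850 genes passed (0.456%), 38 of them higher (0.321%), and in polysomal RNA 20 of 11505 (0.174%), 9 of them lower (0.0782%). The risers had a median log2 change of 0.82 in nuclear RNA (64 of 64 tested above 0) and of 0.79 in polysomal RNA (62 of 64). The genes that fell had a median of -0.73 in nuclear RNA (66 of 67 below 0) and of -0.69 in polysomal RNA (67 of 68). Hspa1b rose by 2.54 in nuclear and 2.43 in polysomal RNA (log2), and Rnf152 changed by -1.41 and -1.33. Without the nuclear library of replicate 4 and the polysomal library of replicate 3 at ZT14, these medians were 0.81 and -0.70 (nuclear) and 0.72 and -0.69 (polysomal). A difference between fractions passed for 0 genes in either comparison by edgeR, and also for 0 without those libraries and replicate 4 of total RNA. At an unadjusted p under 0.05 there were 103 and 135 genes, fewer than the 592.5 and 575.25 expected by chance. The fits did not link libraries of different fractions by number. The 0 calls therefore do not show that the fractions agree. The 3 interaction tests share the wild-type total RNA libraries.

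Set beside the other 4 h steps of the wild-type day, the step across lights off had the highest count with all 36 total RNA libraries. Of 11964 genes, 85 passed from ZT2 to ZT6 (0.71%), 96 from ZT6 to ZT10 (0.802%), 151 from ZT10 to ZT14 (1.26%), 4 from ZT14 to ZT18 (0.0334%), 9 from ZT18 to ZT22 (0.0752%) and 7 from ZT22 to ZT2 (0.0585%). Neighbouring steps share libraries, and no test compared the counts. Without replicate 4 at ZT14 the counts were 113, 163, 161, 31, 50 and 10, so the steps before and across lights off were then nearly equal. Within replicates 1 to 3 they were 112, 100, 38, 12, 15 and 2, so the step across lights off was then the third, and within replicates 4 to 6 they were 4, 15, 16, 1, 0 and 0.

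Day courses of single genes show where the step sits. The Hsp90aa1 mean was 216 ± 46.2 CPM at ZT10, 565 ± 143 CPM at ZT14 and 804 ± 258 CPM at ZT18 (SD, n = 6 each), and that of Hspa1b was 2.62, 22.8 and 8.80 CPM at these times. Hspa5 was at a mean of 781 CPM at ZT10, 1589 CPM at ZT14 and 1608 CPM at ZT18. Rnf152 had means of 109 and 115 CPM at ZT6 and ZT10, and of 47.4, 39.7 and 45.8 CPM at ZT14, ZT18 and ZT22. Nr1d2 fell on from 45.9 CPM at ZT14 to 22.7 and 9.72 CPM at the next times. All ZT14 means here include replicate 4. For Nr1d2 that library was at 3.94 CPM, against 43.3 to 60.2 CPM in the other ZT14 libraries. These levels describe the time course and were not tested beyond the steps above.

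**Figure D5:**
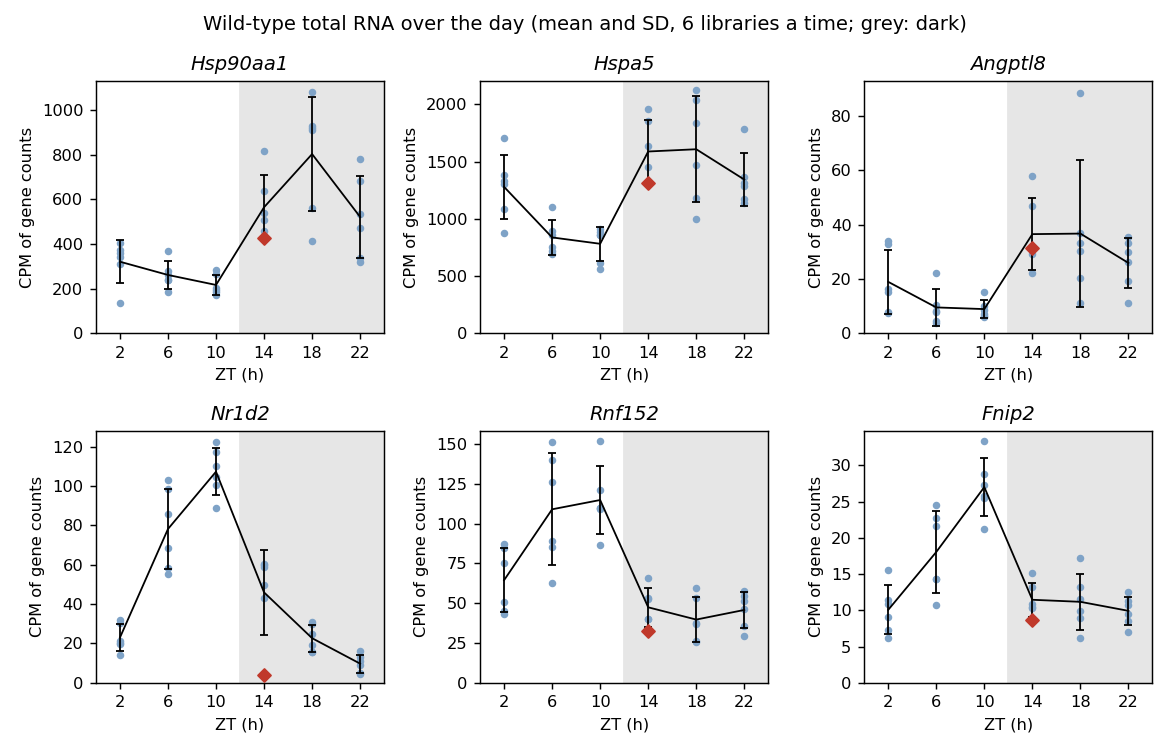
Points are levels (CPM of gene counts) of single wild-type total RNA libraries at ZT2 to ZT22 (6 a time), lines join means with SD bars, grey marks the dark phase and the diamond is the library labelled ZT14 replicate 4. Hsp90aa1, Hspa5 and Angptl8 are higher at ZT14 than at ZT10, and Rnf152 and Fnip2 are lower from ZT14 on.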

How the data were processed

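Gene counts and polyadenylation site counts were deposited by the authors as raw whole-number counts. Reads were aligned with STAR 2.4.2a, and HOMER and edgeR were used, with the builds mm10 and GRCm38.p5, per the submitters' processing notes; what each step did is not given in the sources used here. The positions in the deposited site list (29199 of 86780 sites, a unit of base pairs) were used for sites. Columns were matched to samples by name.

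From the counts, CPM values were computed for display. Changes were tested with edgeR 4.0.16 (R 4.3.3, TMM scaling, quasi-likelihood test, Benjamini-Hochberg adjustment over all features, threshold 0.05) over genes or sites averaging 10 counts or more per library in the fit. Interactions between genotypes or fractions and the 4 h steps used the same test. DESeq2 1.42.0, other scaling, filters, replicate sets and left-out libraries were alternatives. Site shares were tested with the gene's total as offset, for genes averaging 50 counts or more and sites that hold 5% or more of their gene. Sites were given to a RefSeq GRCm38.p6 gene when inside it or up to 1000 bp past its end, and the strand of 2369 genes was taken from the site counts. Promoter windows are from RefSeq GRCm38.p6, of which 8531 tested genes matched.

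Replicate numbers are shared by ZT10 and ZT14. Deviations of same-numbered libraries from their group means correlated at 0.185 to 0.340 (6 of 6 above 0.1). The same number gave the best match for only 3 of the 6. These correlations cannot tell pairing by number from differences between the sets of lower-numbered and higher-numbered replicates. Whether a number pairs libraries is thus not known. The replicate number as a block is an alternative fit, and its values stand beside results that it changes. The labels do not say what a number marks.

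Genes were named by rule: all of the clock list; the 12 largest rises and 12 largest falls among called genes averaging 50 counts or more whose sign was shared by replicates 1 to 3 and replicates 4 to 6; of each other list the 5 members with the smallest adjusted p and members needed to complete a pathway; sites past the usage threshold; and the 6 largest rises and 6 largest falls in the genotype interaction that are also called in wild type. Others are said to be named after their values were seen. Results of some genes are not reported here. The libraries, lists and tests were chosen with earlier results of these data known. The tests were checked on simulated counts.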

Additional observations from a re-analysis of the deposited data

Results flagged for a closer look

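In 410 groups of 6 values (named genes and marker sums), 35 had 1 library whose gap to the rest was large for its group by Dixon's criterion, which chance meets in about 1 in 20 groups. Of the 35, 18 were the library labelled wild type, ZT14, replicate 4, which goes against its label. It was above the other 5 ZT14 libraries for Cry1 (46.0 CPM), Chka (104), Slc16a6 (42.4), Klhl24 (25.9), Mvd (84.3), Insig2 (406), Cdkn1a (115), Cyp2c54 (328), Cyp2c29 (3910), Cnot6l (63.6), Sds (31.6), Spcs2 (131), Mal2 (79.3) and the biliary marker sum (66.6). It was below them for Nr1d2 (3.94 CPM), Foxo3 (18.2), Wee1 (4.24) and Chordc1 (46.8). Its values lie in the Bmal1-/- range at ZT14 for 14 of the 19 clock genes while outside the other 5, and a cause was not tested.

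The other 17 were spread over libraries. At ZT10, replicate 1 was high for Foxo3 (52.0 CPM), replicate 2 for Mpdz (17.2) and the Kupffer cell marker sum (1169), replicate 5 for Cnppd1 (118) and replicate 6 for Manf (58.6). Replicate 4 at ZT10 was high for Sds (53.7) and low for Fkbp5 (8.16) and Chac1 (0.415). At ZT14, replicate 1 was high for Srsf2 (106), replicate 2 for Acot1 (69.6) and the pancreatic acinar marker sum (0.123), replicate 3 for Calcoco1 (39.4) and Plin2 (277), replicate 5 for Hyou1 (35.5), and replicate 6 for Nnmt (162) and Hspa1a (7.23). Replicate 2 at ZT14 was low for Ank3 (10.4).

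The change across lights off differed between genotypes, by the interaction test of edgeR, for 30 genes (log2, Bmal1-/- minus wild type). The wild-type change was higher for, among others, Hspa1b (-3.06), Fam84b (-2.24), Chka (-2.18), Arntl (-2.18), Cry1 (-1.65), Nfil3 (-1.60), Lum (-1.59), Plin5 (-1.46), Bag3 (-1.43), Hsp90aa1 (-1.40), Gm8355 (-1.37), Palld (-1.13), Mal2 (-1.10), Arhgef19 (-1.06), Ube2g2 (-0.99), Atp2a2 (-0.96), Mtmr4 (-0.87), Uap1 (-0.81), Zfp36l1 (-0.77) and Impdh2 (-0.72). It was lower for Zc3h6 (1.94), Ppargc1b (1.44), Rnf152 (1.08), Cdc14b (1.01), Cirbp (0.99), Npc1 (0.96), Mpdz (0.94), Jade1 (0.93) and Cnppd1 (0.62). Without replicate 4 at ZT14, Jade1 (adjusted p 0.054), Cnppd1 (0.054) and Impdh2 (0.060) did not pass. Those not named by rule (Fam84b, Gm8355, Palld, Mal2, Arhgef19, Ube2g2, Atp2a2, Mtmr4, Uap1, Zfp36l1, Impdh2, Mpdz, Jade1 and Cnppd1) were named after their values were seen.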

How the results depend on the processing

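The 133 genes called became 319 with DESeq2, 242 with the replicate block, 228 with the replicate set as a factor, 48 in replicates 1 to 3 and 12 in replicates 4 to 6, and leaving out 1 library gave 58 (without ZT10 replicate 5) to 189 (without ZT14 replicate 4). It fell more than 1.5-fold, to 59 to 88, without ZT10 replicates 1, 2, 4 or 6 or ZT14 replicates 1, 2, 5 or 6. The 71 sites became 205, 150 (block), 148, 27 and 7, and 29 to 91 with 1 library left out (29 to 47 without ZT10 replicates 4, 5 or 6 or ZT14 replicates 1, 2, 3 or 6). The 30 genotype differences became 95 with the block, 3 and 6 in the replicate sets and 49 without ZT14 replicate 4, and the 0 site shares became 1 with the block. In order from the step ZT2 to ZT6, the 4 h counts of 85, 96, 151, 4, 9 and 7 became 200, 200, 277, 3, 27 and 7 with the block, 112, 100, 38, 12, 15 and 2 in replicates 1 to 3, 4, 15, 16, 1, 0 and 0 in replicates 4 to 6, and 113, 163, 161, 31, 50 and 10 without ZT14 replicate 4. The cause was not tested, but fits within a set hold fewer libraries. Median-ratio scaling and no count filter gave 134 and 142 genes, of which 131 and 107 are among the 133. The fit of all 36 wild-type total RNA libraries kept 98 of the 133. The distal share kept its direction (-0.30 to -0.52 points). Over 68 named called genes and 20 settings, 1357 of 1357 values kept their direction and 366 no longer passed. These settings reuse the libraries that chose the genes, so a kept direction was largely set by that choice. The replicate block ended the calls of Dbp (adjusted p 0.097), Chka, Creld2, Slc16a6, Bag3, Gpcpd1, Tsc22d3, Dnajb9 and Tsr1 in edgeR and of no other gene that the report gives as called. Runs without ZT14 replicate 4 for the genotype, fraction, step and distal results were chosen after seeing the data. At 6606105 to 9189423 counts, genes under a mean of 10 counts, such as Npas2, were not tested.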
